A study of Mus musculus with 7 samples.

Results

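The 9 genes described here encode the kinase AKT and parts of the pathway around it: Akt1 and Akt2, the transcription factors Foxo1, Foxo3 and Foxo4, the tuberous sclerosis genes Tsc1 and Tsc2, and the mTOR complex genes Rptor and Rictor. They were taken by gene symbol as members of this pathway, a rule that uses no measured value, and all 9 were found among the 25033 genes listed. RNA was sequenced from primary T-cells, 1 library for each of 3 wild-type mice (WT) and 4 of their ORP4L KI littermates, all on the C57BL/6J strain and all 15 months old. ORP4L KI mice carry the coding sequence of human ORP4L, an oxysterol-binding protein, in the Rosa26 locus behind a CAG promoter and a floxed stop cassette, which is removed by Cre under the Lck promoter, active in the T-cell lineage. The ORP4L KI mice were sampled when moribund and the WT mice at the same age, so the genotype and the disease state cannot be told apart. The methods describe T-cells from blood mononuclear cells or spleen, purified with a kit for naive CD4+ T-cells and then cultured with IL-2 and the mitogen PHA, both of which act on this pathway, without saying for each library which tissue or sex it came from or whether its cells were cultured.

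AKT is recruited to the plasma membrane by the phosphoinositides that PI3-kinase makes, and is then phosphorylated by PDK1 and by the mTOR complex that contains RICTOR. Active AKT phosphorylates FOXO factors, which keeps them out of the nucleus, and TSC2, which with TSC1 holds back the small GTPase RHEB. RHEB activates the mTOR complex that contains RAPTOR, the product of Rptor, and so drives protein synthesis and growth. In T-cells FOXO1 maintains the genes of naive cell homing and survival, and the pathway is turned on by the T-cell receptor and by cytokines. Most of this control is by phosphorylation, which counts of mRNA do not measure.

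The total count was 12918187 to 15912921 in WT and 16757959 to 19665679 in ORP4L KI, and 13462 genes were tested. Reads of Osbp2, which encodes mouse ORP4L, numbered 0, 0 and 1 in the WT libraries and 155 to 742 in the ORP4L KI libraries, whose mean CPM was at least 94.8-fold higher than the largest level that 3 reads in a WT library would give. Its difference passed edgeR's quasi-likelihood test (Benjamini-Hochberg adjusted p = 0.0471). The 10 T-cell markers took 0.193% to 0.292% of the counts in WT and 0.110% to 0.411% in ORP4L KI, none was at 0 in any library, and Cd3e lay at 115 to 176 counts for every 1e6 reads (CPM) in WT and 117 to 245 in ORP4L KI. ORP4L KI replicate 1 had the lowest T-cell marker share and ORP4L KI replicate 2 the highest. The 14 granulocyte markers took 0.195% to 0.534% in WT and 1.12% to 12.2% in ORP4L KI, with the highest share in replicate 1, and 13 of them were higher in ORP4L KI at the thresholds given next, S100a9 among them at 733 to 2381 CPM in WT and 2253 to 43934 in ORP4L KI. Lower in ORP4L KI were 5 of 6 dendritic cell and 5 of 6 NK cell markers, while none of 8 B-cell markers was called, and 1 of 8 monocyte and macrophage markers was higher and 1 lower. The summed dendritic cell share was 0.00685% to 0.0123% in ORP4L KI and 0.0284% to 0.0419% in WT, without overlap. The NK cell share overlapped, at 0.0153% to 0.0724% in ORP4L KI, highest in replicate 2, and 0.0418% to 0.0560% in WT. None of 7 erythroid markers was called, although their summed share was 0.0646% to 0.454% in ORP4L KI and 0.575% to 0.932% in WT, without overlap, at a median log2 fold change of -1.5. Cd8a, a marker that purification of CD4+ cells would deplete, lay at 124 to 179 CPM in WT and 79.6 to 226 CPM in ORP4L KI. In such bulk libraries, fewer cells of a type and less RNA per cell cannot be told apart.

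None of the 9 genes changed between ORP4L KI and WT T-cells at the thresholds used. Foxo3, a FOXO factor that turns on cell cycle arrest and death genes, stood nearest to them, with a lower level in every ORP4L KI library than in any WT library. On CPM scaled between libraries by edgeR's TMM method, Akt2 and Tsc2 were almost constant across the 7 mice. On the same scale Foxo1, Rictor, Rptor and Tsc1 varied from mouse to mouse within both groups. Calls needed a log2 fold change over 1 in size together with an unadjusted p under 0.01, which are the lines of the study's own volcano plot, and a second rule asked for an adjusted p under 0.05. By the first rule 0 of 9 were called higher or lower, where 2.38% of all genes tested were called higher and 2.3% lower, and by the second 0 of 9 against 0.0223% of all genes. At an unadjusted p under 0.05, 0 of 9 were higher against 6.85% of all genes, and 1 of 9 was lower against 6.86%. The log2 fold change was above 0 for 2 genes and below 0 for 7, with a median of -0.07, and the median over all genes tested was 0.013.

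**Figure D1:**
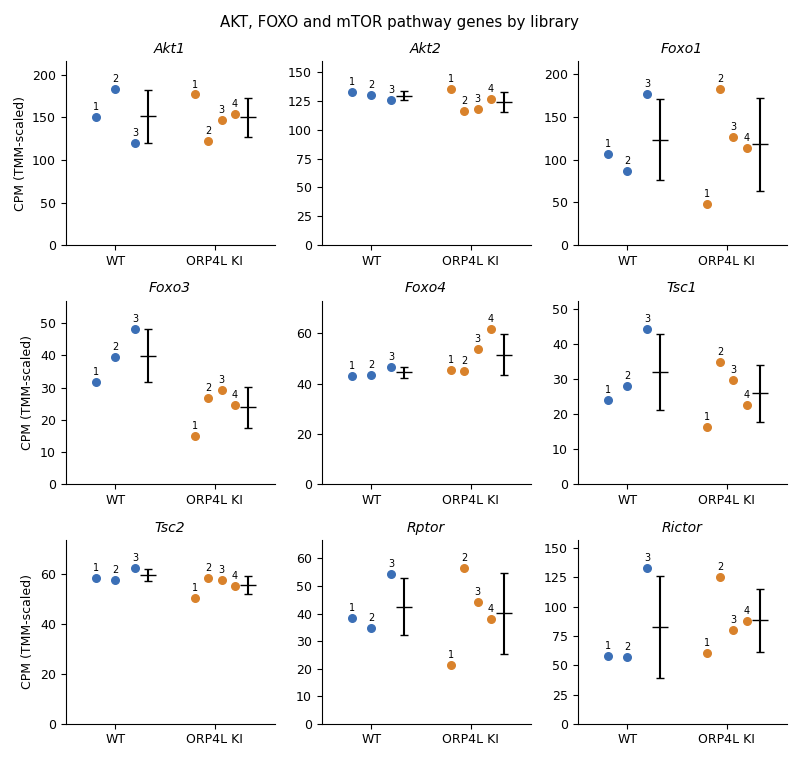
CPM scaled by TMM (y axes, from 0) of the 9 genes in each of the 3 WT (blue) and 4 ORP4L KI (orange) libraries, with the replicate number above each point and the group mean ± SD as a black bar. In the Foxo3 panel the ORP4L KI libraries, at 14.9 to 29.3 CPM, all lie below the WT libraries, at 31.9 to 48.3 CPM, and in the other 8 panels the groups overlap.

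AKT1 and AKT2 are the kinases themselves, AKT1 being the form most tied to growth and survival and AKT2 the form most tied to glucose handling. The Akt1 gene lies on chromosome 12 (112653821 to 112674884 in GRCm38, the mm10 build) and the files merge 3 transcripts of it. WT replicates 1, 2 and 3 had 151, 183 and 120.2 CPM, scaled between libraries by edgeR's TMM method, and the ORP4L KI libraries, in order from replicate 1 to replicate 4, had 177, 122, 147 and 154 CPM. The groups overlapped throughout, and their means were 151 ± 31.3 CPM (SD, n = 3) and 150.1 ± 22.5 CPM (SD, n = 4). The log2 fold change was -0.013 with a standard error of 0.21, and its 95% interval ran from -0.49 to 0.47 (edgeR's quasi-likelihood test, adjusted p = 0.988).

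Akt2 (chromosome 7, 27591552 to 27640826) had 133, 130.0 and 126 CPM in WT and 135, 116, 118 and 127 CPM in ORP4L KI, in the same order of replicates. The lowest and highest of the 7 libraries were only 1.16-fold apart. The log2 fold change was -0.066 ± 0.16 (SE), with a 95% interval from -0.44 to 0.30 (quasi-likelihood test, adjusted p = 0.920). Without the TMM step, on CPM by total count and on the deposited RPKM, every ORP4L KI library lay below every WT library for Akt2, at 26.2 to 29.6 RPKM against 30.3 to 33.6 RPKM. That scaling moves the median of all genes tested by -0.14 on the log2 scale. The share of all genes without overlap on CPM by total count or on RPKM was not counted.

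The FOXO factors behaved differently from each other. Foxo1 (chromosome 3, 52268337 to 52350109), the main FOXO factor of naive T-cells, had 106, 86.8 and 177 CPM in WT and 48.4, 182, 126 and 114 CPM in ORP4L KI. Both the lowest and the highest library were ORP4L KI mice, 3.76-fold apart, so that the WT values lay inside the ORP4L KI range. The log2 fold change of -0.07 ± 0.41 (SE) had a 95% interval from -0.99 to 0.85 (adjusted p = 0.965), which leaves a change of close to 2-fold in either direction within the interval. Without ORP4L KI replicate 1 the log2 fold change was 0.18, and without WT replicate 3 it was 0.29.

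Foxo3 (chromosome 10, 42181845 to 42276695) had 514, 626 and 687 reads in the WT libraries and 245, 489, 510 and 396 reads in the ORP4L KI libraries. These gave 31.9, 39.4 and 48.3 CPM in WT and 14.9, 26.8, 29.3 and 24.6 CPM in ORP4L KI. Every ORP4L KI library lay below every WT library on TMM-scaled CPM, on CPM by total count and on RPKM. Among the 9 genes, 1 had its ORP4L KI libraries all below WT on TMM-scaled CPM, against 7.38% of all genes tested. None of the 9 had them all above, against 6.43%. These shares of all genes were counted on TMM-scaled CPM alone. The mean was 39.8 ± 8.17 CPM (SD, n = 3) in WT and 23.9 ± 6.29 CPM (SD, n = 4) in ORP4L KI, a fitted fold of 0.600 with a 95% interval from 0.400 to 0.900. On the log2 scale this was -0.74 ± 0.26 (SE; edgeR's quasi-likelihood fit, adjusted p = 0.237), so the difference did not pass the correction over all genes. The two-sided exact permutation test over libraries gave p = 0.0571, where the smallest value that 4 against 3 allow is 0.0286. Without ORP4L KI replicate 1, the library with the lowest Foxo3 and the lowest T-cell marker share, the log2 fold change was -0.57. Without WT replicate 3, the library with the highest Foxo3, it was -0.58. The unadjusted p of the quasi-likelihood test was then 0.0777, against 0.0189 with all 7 libraries. With any other library left out it stayed under 0.05. Foxo3 was also counted per 1000 reads of the 10 T-cell markers in the same library, a scaling picked with the values already known. On this scale it had 12.5, 20.4 and 18.2 reads in WT and 11.3, 7.09, 11.6 and 8.96 in ORP4L KI. The log2 difference was -0.80, and the other 8 genes overlapped between groups. Its exact permutation p of 0.0286 is the smallest value possible and was not adjusted over the 9 genes. The share of all genes without overlap on this scale was not counted, so this p is not firmer evidence than the 0.0571 above. A lncRNA gene, Gm38485, overlaps the Foxo3 locus. Whether the transcripts of the pair share sequence was not checked, and strand use in counting is not given in the sources used here. Whether any reads were shared between them is therefore not known.

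Foxo4 (chromosome X, 101254261 to 101260873) had 43.0, 43.6 and 46.8 CPM in WT and 45.5, 44.9, 53.9 and 61.8 CPM in ORP4L KI. Its log2 fold change, 0.21 ± 0.18 (SE), was the highest of the 9, with a 95% interval from -0.20 to 0.63 (adjusted p = 0.708). The groups overlapped, since ORP4L KI replicates 1 and 2 lay between the WT libraries.

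**Figure D2:**
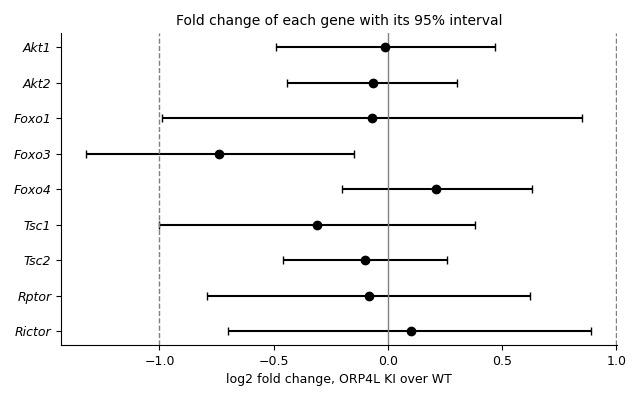
Log2 fold change of ORP4L KI over WT (x axis) for each of the 9 genes (y axis), as points with 95% intervals from edgeR's quasi-likelihood fit, and dashed lines at the threshold of 1 in size. The Foxo3 interval, from -1.32 to -0.15, is the only one that leaves out 0, and the Foxo1 interval, from -0.99 to 0.85, is the widest.

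TSC1 and TSC2 form the complex that switches off RHEB, TSC2 being the part that AKT phosphorylates. Tsc1 (chromosome 2, 28640993 to 28691172) had 23.9, 28.0 and 44.3 CPM in WT and 16.4, 34.9, 29.8 and 22.5 CPM in ORP4L KI. Its log2 fold change was -0.31 ± 0.31 (SE), with a 95% interval from -1.0 to 0.38 (quasi-likelihood test, adjusted p = 0.756), and it came to 0.00028 when WT replicate 3 was left out. Tsc2 (chromosome 17, 24595816 to 24632676) had 58.3, 57.7 and 62.3 CPM in WT and 50.5, 58.4, 57.6 and 55.1 CPM in ORP4L KI. Tsc2 was therefore steady where its partner was not: its log2 fold change was -0.10 ± 0.16 (SE), with a 95% interval from -0.46 to 0.26 (adjusted p = 0.859), and its highest and lowest libraries were 1.23-fold apart against 2.71-fold for Tsc1. The annotated Tsc2 gene overlaps Pkd1.

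RAPTOR and RICTOR are the subunits that tell the mTOR complexes apart. Rptor (chromosome 11, 119602905 to 119899591) had 38.4, 34.7 and 54.3 CPM in WT and 21.5, 56.5, 44.3 and 37.9 CPM in ORP4L KI. Rictor (chromosome 15, 6708349 to 6800401) had 57.9, 57.4 and 133 CPM in WT and 60.7, 125, 80.2 and 87.8 CPM in ORP4L KI. For both genes the highest values were those of WT replicate 3 and ORP4L KI replicate 2, and the groups overlapped. The log2 fold change was -0.085 ± 0.31 (SE) for Rptor, with a 95% interval from -0.79 to 0.62 (adjusted p = 0.948). For Rictor it was 0.10 ± 0.35 (SE), with a 95% interval from -0.70 to 0.89 (adjusted p = 0.947), and it turned to -0.033 under scaling by total counts. Akt1 and Rptor are also overlapped by annotated noncoding genes, Gm30150 and Mir6939 at Akt1 and Rptoros at Rptor.

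Across the 7 libraries the 9 genes separated by how much they varied among mice of the same genotype. The SD within groups, on log2 CPM, was 0.71 for Foxo1, 0.55 for Rictor, 0.50 for Rptor and 0.46 for Tsc1, against a median of 0.32 over the 8804 genes with a mean of at least 10 CPM. These values lay at percentiles 93.5, 84.0, 79.1 and 74.6 of those genes. At the other end, the SD was 0.082 for Tsc2 and 0.081 for Akt2, at percentiles 0.920 and 0.886, so that these were among the steadiest genes of these libraries. Foxo3 at 0.38, Akt1 at 0.26 and Foxo4 at 0.17 lay between.

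The variable genes were high in the same mice, and all of them but Rictor were lowest in the same mouse. WT replicate 3 and ORP4L KI replicate 2 gave the highest values of Foxo1, Rictor, Rptor and Tsc1, and ORP4L KI replicate 1 gave the lowest values of Foxo1, Rptor, Tsc1, Foxo3 and Tsc2, whereas Rictor was lowest in WT replicate 2, at 57.4 CPM against 60.7 CPM in ORP4L KI replicate 1. The same 3 libraries held the lowest T-cell marker share, 0.110% in ORP4L KI replicate 1, and the highest shares, 0.411% in ORP4L KI replicate 2 and 0.292% in WT replicate 3. Per 1000 T-cell marker reads the highest and lowest libraries were 1.49-fold apart for Rptor, where they were 2.63-fold apart on CPM. For Foxo1 they were 1.82-fold apart in place of 3.76, and for Tsc1 2.04-fold in place of 2.71, but for Rictor 2.21-fold in place of 2.32. The steady genes went the other way, Akt2 from 1.16-fold on CPM to 3.33-fold per T-cell marker read Tsc2 from 1.23-fold to 2.48-fold, Foxo4 from 1.44-fold to 2.91-fold and Akt1 from 1.52-fold to 4.15-fold. Granulocyte markers were highest in ORP4L KI replicate 1, at 12.2% of counts, and their part in these values was not tested.

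**Figure D3:**
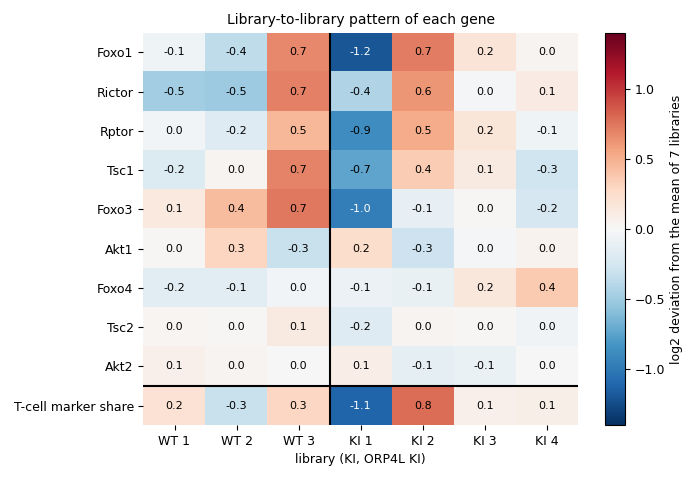
Log2 deviation of each gene (rows, ordered by SD within groups) from its own mean over the 7 libraries (columns, WT left of the line), colored from blue for low to red for high, with the summed T-cell marker share in the bottom row. The upper 4 rows and the T-cell marker row are red in WT replicate 3 and ORP4L KI replicate 2 and blue in ORP4L KI replicate 1, though Rictor is slightly lower in WT replicates 1 and 2, while the Tsc2 and Akt2 rows stay near 0.

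Levels of different genes were compared per length, on the RPKM that the authors computed from each gene's longest transcript. Akt1 was highest in all 7 libraries, with a mean of 56.6 RPKM and a range of 50.1 to 69.1. It was followed by Akt2 at 29.5 RPKM (26.2 to 33.6), Foxo1 at 22.3 (7.27 to 35.7) and Foxo4 at 15.3 (12.0 to 18.0). Foxo3 had 10.9 RPKM (4.30 to 18.4), Rictor 9.41 (5.43 to 15.7) and Tsc2 9.06 (6.63 to 10.8). Rptor at 6.05 RPKM (2.58 to 8.85) and Tsc1 at 3.80 RPKM (1.78 to 6.35) were 8th and 9th in every library. Of neighbours in this order, only Akt1 and Akt2 had ranges that did not overlap. Akt2 exceeded Foxo1 in 5 of 7 libraries, Foxo1 exceeded Foxo4 in 6, Foxo4 exceeded Foxo3 in 6, Foxo3 exceeded Rictor in 4 and Rictor exceeded Tsc2 in 3, so Foxo3, Rictor and Tsc2 could not be ordered.

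**Figure D4:**
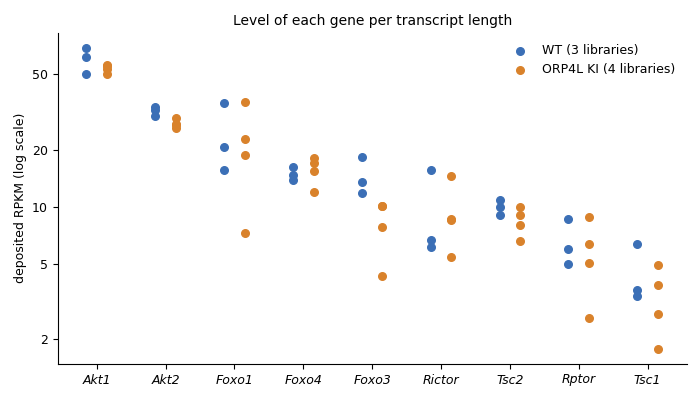
Deposited RPKM on a log axis (y) of the 9 genes (x, ordered by their mean over all libraries) in 3 WT (blue) and 4 ORP4L KI (orange) libraries, 1 point per library. Akt1, at 50.1 to 69.1 RPKM, stands above all the others, and Foxo1 spans the widest range, from 7.27 to 35.7 RPKM.

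Ratios within a library do not depend on how libraries are scaled, and 5 ratios between paralogs or partners were tested. The RPKM ratio of Foxo3 to Foxo1 was 0.577, 0.872 and 0.523 in WT and 0.592, 0.283, 0.445 and 0.416 in ORP4L KI. The groups overlapped through ORP4L KI replicate 1, where both genes were low, and the log2 difference of -0.61 did not pass the two-sided exact permutation test (p = 0.143, adjusted over 5 ratios 0.571). Rictor to Rptor was 1.12, 1.23 and 1.83 in WT and 2.11, 1.65, 1.35 and 1.73 in ORP4L KI, a log2 difference of 0.31 (exact permutation p = 0.229, adjusted 0.571). Akt2 to Akt1 lay between 0.438 and 0.645 in all 7 libraries, so Akt1 was the higher of the pair in every mouse, and the log2 difference between groups was -0.063 (exact permutation p = 0.714, adjusted 0.714). The remaining differences were 0.35 for Foxo4 to Foxo1 and 0.21 for Tsc2 to Tsc1 (exact permutation p = 0.514 for each, adjusted 0.643). The ratio of Foxo4 to Foxo3, picked after its values were seen and so not tested, was 1.23, 1.01 and 0.886 in WT and 2.79, 1.53, 1.68 and 2.29 in ORP4L KI, and was higher in every ORP4L KI library than in any WT library.

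The genes around the 9 were taken from 9 lists by role, holding 95 genes, of which 92 passed the filter on low counts. Of these 92, 1 was called higher and 1 lower at the first thresholds, against the 2.38% and 2.3% of all genes given above, and 0 at an adjusted p under 0.05 by edgeR's quasi-likelihood test. By DESeq2's Wald test, which passed 784 of all 13462 genes at that adjusted threshold, 4 of the 92 passed, namely Prr5l, Asns, Cited2 and Ccng2. At an unadjusted p under 0.05, 8 of the 92 were higher and 5 lower, against 6.85% and 6.86% of all genes tested. The log2 fold change was above 0 for 57 genes and below 0 for 35, with a median of 0.089.

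The 9 genes listed as mTOR complex subunits take in assembly partners such as Telo2. Among them Prr5l fell and no other was called, with 8 of the 9 below 0 and a median log2 fold change of -0.21. The share of all genes below 0 was not counted. Prr5l encodes a partner of the RICTOR complex, and had 12.1, 21.0 and 18.4 CPM in WT and 6.88, 8.65, 8.04 and 5.35 CPM in ORP4L KI. The groups did not overlap, and the log2 fold change was -1.25 ± 0.27 (SE; adjusted p = 0.0795 by the quasi-likelihood test, 0.00214 by DESeq2's Wald test and 0.00316 by edgeR's likelihood ratio test). Telo2, a chaperone partner in mTOR assembly, had a log2 fold change of -0.50 (adjusted p = 0.331), and Deptor, an inhibitor bound to mTOR, -0.59 (adjusted p = 0.395). Mtor itself stood at -0.21.

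In the ATF4 branch, the amino acid synthesis and uptake genes that ATF4 turns on when mTOR or amino acid stress raises it, Asns rose and the other 7 genes were not called. The gene encodes asparagine synthetase and had 11.9, 10.8 and 5.13 CPM in WT and 55.5, 14.1, 22.7 and 21.5 CPM in ORP4L KI. Its log2 fold change was 1.62 ± 0.49 (SE; adjusted p = 0.170 by the quasi-likelihood test, 0.0201 by DESeq2's Wald test and 0.0311 by edgeR's likelihood ratio test). ORP4L KI replicate 1, also the library with 12.2% granulocyte marker counts, was the highest, the part of those markers was not tested, and without this library the log2 fold change was 1.07 and its unadjusted p no longer passed the threshold. The call was also lost without WT replicate 1, 2 or 3 or ORP4L KI replicate 3 or 4, at log2 fold changes of 1.84, 1.74, 1.33, 1.71 and 1.73. Atf4 and the amino acid transporter subunit Slc3a2 each had a log2 fold change of 0.50, with adjusted p-values of 0.463 and 0.471, and the list's median was 0.30.

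FOXO target genes gave no call among 17 by the quasi-likelihood test, with 8 above 0, 9 below 0 and a median of -0.055. Cited2, a transcriptional co-regulator, had 112, 109.7 and 120.3 CPM in WT and 171, 157, 183 and 210.2 CPM in ORP4L KI, with no overlap. Its log2 fold change was 0.66 ± 0.18 (SE; adjusted p = 0.139, and 0.00714 by DESeq2's Wald test), under the threshold in size. Ccng2, a cyclin linked to arrest, had 42.1, 50.5 and 63.9 CPM in WT and 111, 70.3, 79.1 and 95.2 CPM in ORP4L KI, again without overlap, at a log2 fold change of 0.77 (adjusted p = 0.166, and 0.0476 by DESeq2's Wald test). Txnip, which restrains glucose uptake, stood at 0.44 (adjusted p = 0.424). Of the homing and survival targets of naive T-cells, Ccr7 had a log2 fold change of -0.68, S1pr1 of -0.42, Il7r of -0.063 and Klf2 of 0.36. Their adjusted p-values ran from 0.540 to 0.966 by the quasi-likelihood test. Ccr7 also had no overlap, at 363 to 451 CPM in WT and 89.9 to 358 CPM in ORP4L KI. Of the 17 targets, 1 lay below WT without overlap and 2 above, against 7.38% and 6.43% of all genes tested.

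FOXO partners are the proteins that bind, modify or degrade FOXO factors. All 10 genes tested were above 0, with a median of 0.24 against 0.013 over all genes tested, and none was called. The share of all genes above 0 was not counted. Foxo6 was not tested for low counts. Ywhaz, a phosphoserine-binding adaptor that holds phosphorylated FOXO in the cytoplasm, had 624, 710.1 and 801 CPM in WT and 1272, 985, 881 and 940.1 CPM in ORP4L KI. Its relative Sfn had 48.7 to 55.1 CPM in WT and 55.3 to 134 CPM in ORP4L KI. The log2 fold changes were 0.52 and 0.68, with adjusted p-values of 0.341 and 0.350. Skp2, a ubiquitin ligase subunit for FOXO1, stood at 0.55 (adjusted p = 0.650). Sfn was highest in ORP4L KI replicate 4, its relative Ywhaq in ORP4L KI replicate 2, and Sirt1 and Usp7 in WT replicate 3. Ywhaz, its relatives Ywhab, Ywhae, Ywhag and Ywhah, and Skp2 were highest in ORP4L KI replicate 1, the library with 12.2% granulocyte marker counts. The part of those markers was not tested.

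Upstream regulators of AKT gave no call among 9, with a median of -0.021. Ppp2cb, a catalytic subunit of the phosphatase PP2A that removes AKT phosphate, had 45.7 to 57.5 CPM in WT and 66.3 to 156 CPM in ORP4L KI, a log2 fold change of 0.88 (adjusted p = 0.223). The AKT inhibitor Trib3 stood at 0.74 (adjusted p = 0.578) and the AKT-like kinase Sgk1 at 0.33 (adjusted p = 0.635). Of 5 further AKT substrates none was called, and the median was 0.13. Tbc1d4, which holds glucose transporters inside the cell until AKT phosphorylates it, had 259.8, 316 and 324 CPM in WT and 95.6, 236, 203 and 180.0 CPM in ORP4L KI. The groups did not overlap, and the log2 fold change was -0.75 ± 0.29 (SE; adjusted p = 0.290). Bad, a death promoter, stood at 0.49 (adjusted p = 0.750) and the kinase Gsk3b at 0.32 (adjusted p = 0.646).

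The stress inputs to TSC and RHEB had 7 of 9 genes tested, no call and a median of 0.18, and Ddit4l and Prkaa2 were too low to test. Ddit4, an mTOR inhibitor induced by stress, had 36.6 to 40.7 CPM in WT and 39.7 to 89.1 CPM in ORP4L KI (log2 fold change 0.71, adjusted p = 0.264). Sesn2, a leucine sensor, stood at -0.63 (adjusted p = 0.331) and Prkaa1, an AMPK catalytic subunit, at 0.22 (adjusted p = 0.677). The 15 genes of the amino acid branch, the Rag GTPases and their lysosomal partners, gave no call and a median of 0.084. Lamtor4, part of the lysosomal anchor, had 33.3, 39.3 and 16.7 CPM in WT and 169.8, 21.7, 43.9 and 64.1 CPM in ORP4L KI, at a log2 fold change of 1.33 (adjusted p = 0.395). Its highest library, ORP4L KI replicate 1, is the one with 12.2% granulocyte marker counts, and without it the log2 fold change was 0.54, while without ORP4L KI replicate 2 it was 1.63 and passed the first thresholds. Fnip1, a folliculin partner, stood at 0.61 (adjusted p = 0.498) and Nprl3, of the complex that switches off Rag GTPases, at -0.44 (adjusted p = 0.464).

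Among 12 substrates and outputs of mTOR with RAPTOR there was no call, and the median was 0.071. Lpin1, a phosphatidate phosphatase, had 45.4, 31.9 and 62.7 CPM in WT and 38.2, 196, 117 and 85.2 CPM in ORP4L KI (log2 fold change 1.23, adjusted p = 0.297). The lysosomal transcription factor Tfeb had 66.8, 79.6 and 44.0 CPM in WT and 47.0, 32.8, 46.0 and 46.8 CPM in ORP4L KI (log2 fold change -0.56, adjusted p = 0.344). The cap-binding protein gene Eif4e stood at 0.22 (adjusted p = 0.687).

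**Figure D5:**
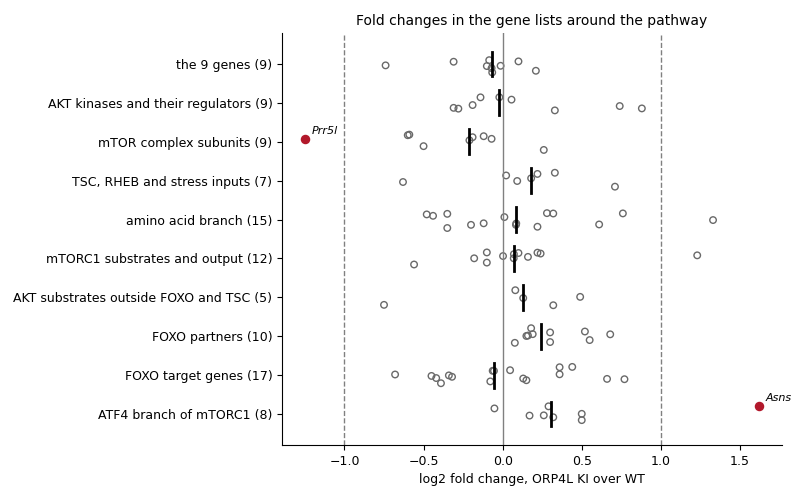
Log2 fold change of ORP4L KI over WT (x axis) for the 9 genes and for each list around them (y axis, number of genes tested in brackets), 1 circle per gene, with the median of each list as a black bar and dashed lines at 1 in size. The genes called, Prr5l at -1.25 and Asns at 1.62, are filled red and named, and the medians run from -0.21 for mTOR complex subunits to 0.30 for the ATF4 branch.

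Promoters were searched for the FOXO core motif GTAAACA on both strands, which reads TGTTTAC on the other strand, in RefSeq windows from 250 bases before to 50 after each start site (GRCm38.p6, the mm10 build). The motif was chosen after the values were seen. It occurred in 1199 of 32851 promoters (3.65%). Of the 9 genes, 8 had a promoter window, 12 windows in all, and 1 of them matched, that of Akt1. Among FOXO target genes, 13 of 17 had a window and 3 of their 15 windows matched, those of Bcl2l11, Sesn1 and Txnip. Of the other 8 lists searched, mTOR complex subunits matched in 2 of 13 windows, both of Mapkap1, and the TSC and RHEB inputs in 1 of 8, that of Stk11, with no match in the remaining 6. These matches are shown because FOXO factors and their targets are the genes compared above, and the capitals mark the motif in its gene's strand direction.
Akt1, chr12:112675029-112675055, minus strand: tctaccctctTGTTTACactcctggtg
Bcl2l11, chr2:128125801-128125827, plus strand: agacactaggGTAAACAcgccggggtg
Sesn1, chr10:41810586-41810612, plus strand: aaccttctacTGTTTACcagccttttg
Txnip, chr3:96557826-96557852, plus strand: tggaggcctgGTAAACAagggccaagt
The Akt1 match begins 161 bases before the start site. The log2 fold changes of Bcl2l11, Sesn1 and Txnip were 0.047, -0.45 and 0.44 (adjusted p = 0.964, 0.457 and 0.424 by the quasi-likelihood test), so the genes with a match differed in sign and none was called.

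The E-box CACGTG, the palindrome read by TFEB and other factors of its class, was searched in the same windows. It occurred in 2349 of 32851 promoters (7.15%), in 0 of the 12 windows of the 9 genes, and in 5 of 14 windows (35.7%) of the amino acid branch, those of Fnip1, Lamtor1, Lamtor4, Rragb and Rragc. This was the highest share of the 9 lists searched and was picked for that, with 2 of 8 windows (25.0%) in the TSC and RHEB inputs and 0% to 13.3% in the other 7 lists. The match of Rragc and the first of 2 matches of Lamtor4 are shown, as a near-zero and the highest fold change among these genes, with the motif in capitals.
Lamtor4, chr5:138255352-138255377, plus strand: agaaagttaaCACGTGaacagctttt
Rragc, chr4:123917311-123917336, plus strand: tgattccgggCACGTGatagtaccac
The log2 fold changes of the genes with an E-box ran from -0.48 for Rragb to 1.33 for Lamtor4, through 0.084 for Rragc, 0.32 for Lamtor1 and 0.61 for Fnip1, and none was called. A match describes the letters of the window and is not evidence that a factor binds there.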

How the data were processed

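T-cell libraries of 4 ORP4L KI and 3 WT mice were assigned to groups by the labelled genotype, with the labelled replicate numbers. The authors trimmed adapters, mapped reads to a mouse mRNA reference with FANSe3 and merged splice variants, and the deposited values are the raw read count per gene and the authors' RPKM, computed on the longest transcript. The labels name mm10, and the reference version, strand setting and treatment of reads shared between paralogs are not given in the sources used here. No pair of libraries agreed within sampling noise. Coordinates and promoter sequences are those of RefSeq on GRCm38.p6.

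Counts were tested with edgeR 4.0.16 in R 4.3.3 (TMM scaling, filterByExpr with a minimum count of 10 and a total of 15, quasi-likelihood test, no covariates), with Benjamini-Hochberg adjustment over 13462 genes. The RNA sequencing methods name no test, and the study's general statistics section names an unpaired two-tailed test of means for all comparisons of a pair of groups, which was not used across genes here. CPM are scaled by TMM, and RPKM was used for levels between genes only. Ratios and single genes were compared by exact permutation over libraries. Each library is a separate mouse, and p-values measure the spread between these libraries. In simulated data, 193 of 200 genes changed by 2 on the log2 scale among 13462 were recovered at the first thresholds and 171 at the adjusted one. Smaller changes were not simulated, so these rates do not cover changes of the size fitted for the 9 genes, the largest being -0.74 for Foxo3.

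Every one of the 9 genes is named. From each list the genes called are named and, where fewer than 3, more in order of p until there are 3. Of the listed genes, 1 is not reported here by name. Mtor, the naive T-cell targets named, Bcl2l11, Sesn1, Rragb, Rragc and Lamtor1 fall outside this rule, being picked with their values already known. The same holds for Ywhab, Ywhae, Ywhag, Ywhah, Ywhaq, Sirt1 and Usp7. The genes, lists and tests were chosen with earlier results of these data known. Alternatives were other scalings (DESeq2 size factors, upper quartile, total counts), filters and tests (DESeq2 1.42.0, likelihood ratio), the replicate block and each library left out. Counting per T-cell marker read and the Foxo4 to Foxo3 ratio were added after the data were seen.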

Additional observations from a re-analysis of the deposited data

Results flagged for a closer look

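Of 42 sets of 4 ORP4L KI values examined for a library far from the others, 1 had such a library, and chance gives about 1 in 20. Tfeb, the lysosomal transcription factor, had 32.8 CPM in ORP4L KI replicate 2 against 46.0 to 47.0 CPM in the other 3 ORP4L KI libraries. That library had the highest T-cell marker share, 0.411% of counts, and its part in the value was not tested.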

How the results depend on the processing

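None of the 9 genes was called under any alternative, and over 15 alternatives Foxo3 kept its direction, with log2 fold changes from -0.87 to -0.57 and adjusted p-values from 0.146 to 0.525. Signs turned for 5 of the 9 genes, none of them called: Akt1 came to 0.0015 with DESeq2 size factors and 0.0014 with DESeq2's Wald test, and Rictor to -0.033 with total counts. With each library left out, values ran from -0.15 to 0.14 for Akt1, -0.38 to 0.29 for Foxo1, -0.51 to 0.00028 for Tsc1, -0.32 to 0.13 for Rptor and -0.14 to 0.62 for Rictor, and the log2 difference of ratios from -0.21 to 0.071 for Akt2 to Akt1 and -0.014 to 0.38 for Tsc2 to Tsc1. The cause was not tested.

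Of 27 other named genes, Bad turned to -0.094 without ORP4L KI replicate 1, its values with a library left out reaching 0.78. Calls changed in 13 further of 405 comparisons, 7 lost, all for Asns, and 6 gained, for Cited2 and Ccng2 with DESeq2's Wald test, Ppp2cb and Lamtor4 without ORP4L KI replicate 2, Fnip1 without WT replicate 3 and Lpin1 without ORP4L KI replicate 1. Genes called in the lists, 2 in all, were 1 with upper-quartile scaling, 4 with DESeq2's Wald test, and 1 to 4 with a library left out. Over all genes, 630 were called at the first thresholds and 328 (without WT replicate 2) to 805 (without ORP4L KI replicate 2) with a library left out, and the higher calls made up 50.8%, or 40.3% with total counts, 33.2% without WT replicate 3 and 60.5% without ORP4L KI replicate 2. At an adjusted p under 0.05 the 3 calls became 44 with upper-quartile scaling, 113 with total counts, 176 without a filter, 706 with the likelihood ratio test, 784 with DESeq2's Wald test and 0 with 10 counts in every library, where edgeR still gave 1549 genes at an unadjusted p under 0.05. Leaving out a library gave 0 (without WT replicate 1, 2 or 3 or ORP4L KI replicate 4, where edgeR gave 1260 to 1759 genes at an unadjusted p under 0.05) to 342 (without ORP4L KI replicate 2).

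Same-numbered libraries correlated at 0.183, -0.608 and 0.0524, and pairs with other numbers at -0.446 to 0.571. These few values cannot show whether the numbers pair the mice, and the sources used here do not say. With the replicate block, which leaves out ORP4L KI replicate 4, 466 genes were called at the first thresholds and 48 at the adjusted one, against 442 and 0 in the same 6 libraries without the block, none of the 9 genes was called, and Foxo3 stood at -0.79 (adjusted p = 0.419, edgeR).

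Foxo3 rests on 245 to 687 reads per library. The 95% intervals leave room for changes of close to 2-fold in Foxo1, and counts of mRNA say nothing of AKT, FOXO or TSC2 phosphorylation.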
